A study of Homo sapiens with 4 samples.

Results

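Epithelial-mesenchymal transition (EMT) transcription factors were examined in HGC-27, a human gastric cancer cell line derived from a metastatic lymph node. The group comprised 9 genes chosen by symbol: SNAI1, SNAI2, ZEB1, ZEB2, TWIST1, TWIST2, PRRX1, FOXC1 and FOXC2. All 9 were found among the 25559 gene symbols of the count tables. RNA-seq libraries of poly(A) RNA came from wildtype cells, called control here (n = 2), and from RUNX3 knock-out cells, called RUNX3 KO (n = 2). The RUNX3 KO cells were made with Cas9 and a guide against RUNX3 delivered by lentivirus, selected with puromycin and passed through single-cell cloning. The number of clones, and whether the replicates were separate cultures, are not given in the sources used here, so effects of cloning and of RUNX3 loss cannot be told apart and p-values measure only the spread between these libraries.

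EMT is the process in which epithelial cells loosen their junctions and take on a migratory, mesenchymal state. The transcription factors of the SNAIL, ZEB and TWIST families bind E-box sequences, and SNAIL and ZEB proteins recruit corepressors to epithelial genes such as CDH1, which encodes E-cadherin. PRRX1, a paired-related homeobox factor, and the forkhead factors FOXC1 and FOXC2 are linked to the mesenchymal state in development and in carcinoma. How these regulators stand when RUNX3 is disrupted bears on the question that the RNA-seq addressed, namely which genes RUNX3 controls in a metastatic gastric cancer line.

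In RUNX3 KO cells, 5 of the 9 factors were lower and none was higher. SNAI2 fell most, by 3.83-fold, followed by PRRX1 by 1.93-fold, SNAI1 by 1.42-fold, TWIST1 by 1.31-fold and ZEB1 by 1.20-fold. The expressed factors ZEB2 and FOXC1 did not pass the test in either direction. TWIST2 and FOXC2 were at most at 1 read in any library and could not be tested. Lower RNA in a bulk culture can come from fewer expressing cells or from less RNA per cell, which cannot be told apart here.

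The libraries held between 11731401 and 12110876 reads on genes, and 7 of the 9 factors had enough counts to enter the test, among 12967 genes in all. Tests used the quasi-likelihood method of edgeR, with Benjamini-Hochberg adjusted p-values over all tested genes and a threshold of 0.05. By this test 24.4% of genes had lower and 24.5% higher counts in RUNX3 KO cells, 48.9% in either direction, against 5 and 0 of the 7 factors tested. At an unadjusted p under 0.05 the count of factors that were higher was also 0. At the adjusted threshold it was 0 with DESeq2, limma-voom and edgeR's exact test as well. The median log2 fold change of the 7 factors was -0.39, beside -0.0021 for all tested genes. The study asked for a 2-fold difference and a p of at most 0.05, and does not say whether p was adjusted. With these thresholds on the unadjusted p of edgeR, SNAI2 alone passed among the factors, while 4.01% of all tested genes were lower and 2.11% higher. The study, with its own normalization, reports more genes in each direction, so these shares are not its result. The 2 control and 2 RUNX3 KO values did not overlap for 5 factors that were lower and for ZEB2, which lay above, and the same held for 36.4% of tested genes in the lower and 36.3% in the higher direction. The targeted gene RUNX3 had 351 and 308 counts in control cells and 225 and 185 in RUNX3 KO cells, which is -0.70 on the log2 scale (SE 0.0961). Its call was lost without RUNX3 KO replicate 2, at -0.55 on the log2 scale. By immunoblot, the study reports RUNX3 protein as absent from its RUNX3 KO cells. Counts of RNA do not show whether protein remains.

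**Figure D1:**
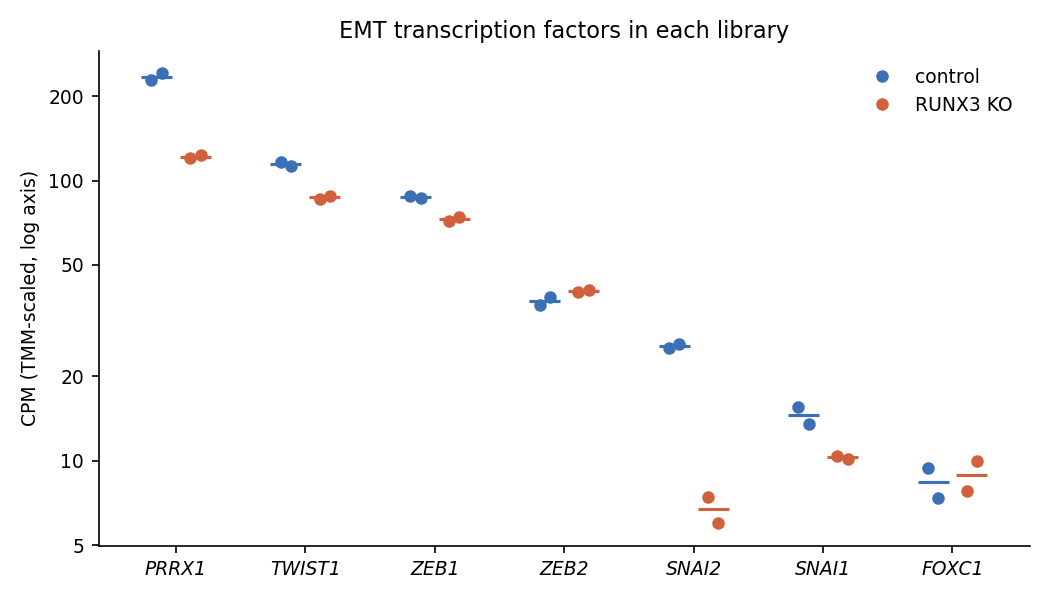
The 7 expressed EMT transcription factors on the x axis, with CPM (counts scaled to library size) on a logarithmic y axis. Each point is 1 library, horizontal bars are means of 2 libraries, blue is control and orange is RUNX3 KO. SNAI2 and PRRX1 show the widest gaps between the groups, and among these 7 the groups overlap for FOXC1 only.

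SNAI2 encodes SLUG, a zinc finger repressor that acts in neural crest migration and on the E-cadherin gene. It lies on chromosome 8 from 49830157 to 49834299 (GRCh37, minus strand). Control libraries gave 299 and 309 counts, and RUNX3 KO libraries gave 88 and 72. In CPM, which are counts relative to library size after TMM scaling, these are 25.8 ± 0.607 (SD, n = 2) and 6.72 ± 1.04 (SD, n = 2). Both control libraries lay far above both RUNX3 KO libraries. SNAI2 shares 121 exon bases (3.69%) with an annotated long noncoding RNA on the opposite strand. Its change of -1.94 on the log2 scale (SE 0.119) had an edgeR quasi-likelihood adjusted p of 2.89e-26. Of the 12967 tested genes, 188 (1.45%) fell further on this scale. SNAI2 is among the genes that the study itself names from these libraries, under the spelling SNAIL2, so its choice is not independent of them.

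SNAI1, which encodes SNAIL, is the paralog of SNAI2 and another zinc finger repressor of epithelial genes. It spans 48599517 to 48605423 on chromosome 20 (GRCh37, plus strand). Its counts were 184 and 160 in control cells and 123 and 122 in RUNX3 KO cells, so the groups were separate but closer than those of SNAI2. Control libraries averaged 14.6 ± 1.43 CPM and RUNX3 KO libraries 10.3 ± 0.193 CPM (SD, n = 2 each). The change in SNAI1 of -0.50 on the log2 scale (SE 0.123) had an edgeR quasi-likelihood adjusted p of 0.000349. This call was lost with DESeq2 (adjusted p = 0.0679), and in edgeR without RUNX3 KO replicate 1 (0.0822) or RUNX3 KO replicate 2 (0.102), while the log2 fold change stayed between -0.60 and -0.40 with any 1 library left out.

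The SNAIL paralogs were also compared as a ratio. Scaled to exon length, SNAI2 RNA was 0.844 and 1.00 times that of SNAI1 in control cells, against 0.372 and 0.307 times in RUNX3 KO cells. The log2 ratio thus went from -0.12 ± 0.176 to -1.57 ± 0.196 (SD, n = 2 each), a difference of -1.45. An exact permutation test, two-sided, gave p = 0.333, the smallest this test can give with 2 libraries per group, so this test cannot reach 0.05 here.

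PRRX1 encodes a homeobox factor of limb and craniofacial mesenchyme. It lies on chromosome 1 from 170631869 to 170708562 (GRCh37, plus strand). It had 2691 and 2849 counts in control cells, the most of any of the 9 genes, and 1422 and 1480 in RUNX3 KO cells. The RUNX3 KO libraries agreed closely and lay well under both control libraries. Control libraries averaged 235 ± 9.53 CPM and RUNX3 KO libraries 122 ± 1.86 CPM (SD, n = 2 each). The fall of 0.95 on the log2 scale (SE 0.0373) had an edgeR quasi-likelihood adjusted p of 2.27e-39. PRRX1 thus stopped just short of a 2-fold fall. In the table of tested genes, 569 (4.39%) had a lower log2 fold change. Of the 7 tested factors it alone is in the study's supplementary lists, which cover RUNX3 binding sites enriched with CDX2, LHX2 or TCF3 motifs. Absence from these lists does not show that a gene is no target of RUNX3. Whether the lists used these libraries is not stated.

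TWIST1, a basic helix-loop-helix factor of mesoderm and neural crest, lies on chromosome 7 from 19060614 to 19157259 (GRCh37, minus strand). The control libraries had 1371 and 1327 counts and the RUNX3 KO libraries 1016 and 1059. Control libraries averaged 114 ± 2.60 CPM and RUNX3 KO libraries 87.1 ± 1.42 CPM (SD, n = 2 each). The fall was modest in size and larger than the spread in either group. Its size of -0.39 on the log2 scale (SE 0.0455) had an edgeR quasi-likelihood adjusted p of 3.59e-12. TWIST1 shares 141 exon bases (7.06%) with another such RNA on the opposite strand. Its paralog TWIST2, on chromosome 2 from 239756673 to 239832230 (plus strand), had 1 count in control replicate 2 and 0 in the other libraries. A count of 0 allows a level of up to 0.254 CPM in control replicate 1 and RUNX3 KO replicate 1 and up to 0.250 CPM in RUNX3 KO replicate 2, from counting error alone. Counts of the TWIST genes in this line were thus nearly all from TWIST1.

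ZEB1 and ZEB2 encode large proteins with zinc finger clusters on either side of a homeodomain. ZEB1 lies on chromosome 10 from 31607424 to 31818742 (GRCh37, plus strand). It had 1037 and 1022 counts in control cells and 849 and 889 in RUNX3 KO cells, or 87.2 ± 0.873 and 72.9 ± 1.42 CPM (SD, n = 2 each). The change of -0.26 on the log2 scale (SE 0.0501) had an edgeR quasi-likelihood adjusted p of 8.26e-06 and was the smallest of the 5 that passed. Of the tested genes, 22.8% had a lower log2 fold change. ZEB1 shares 396 exon bases (4.58% of its exon length) with ZEB1-AS1 on the opposite strand, and whether counting used strand is not given in the sources used here. ZEB1-AS1 had 84 and 76 counts in control cells and 62 and 64 in RUNX3 KO cells. Its difference of -0.36 on the log2 scale (SE 0.174) did not pass (edgeR quasi-likelihood adjusted p = 0.0805).

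ZEB2 lies on chromosome 2 from 145121931 to 145278624 (GRCh37, minus strand). Its counts were 423 and 453 in control cells and 474 and 490 in RUNX3 KO cells. Both RUNX3 KO values lay slightly above both control values, at 40.5 ± 0.423 CPM against 37.1 ± 1.81 CPM (SD, n = 2 each). The log2 fold change of 0.12 (SE 0.0713) did not pass (edgeR quasi-likelihood adjusted p = 0.143), and its interval, taken as 1.96 SE on either side, ran from -0.01 to 0.26. ZEB2 shares 1299 exon bases (4.97%) with ZEB2-AS1 on the opposite strand and 2966 (11.3%) with an annotated pseudogene on its own strand, so its counts are less certain. A fall of ZEB2 as large as that of ZEB1 lay outside this interval. The ratio of ZEB2 to ZEB1, scaled to exon length, was 0.135 and 0.147 in control cells, against 0.185 and 0.182 in RUNX3 KO cells. Scaled to the longest annotated transcript it was 0.266 and 0.289 in control cells and 0.364 and 0.359 in RUNX3 KO cells. On the log2 scale the ratio differed by 0.38 between the groups by either length (exact permutation p = 0.333, two-sided, again the smallest possible).

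FOXC1 encodes a forkhead factor of mesoderm, the anterior eye and vessels. It lies on chromosome 6 from 1610150 to 1614132 (GRCh37, plus strand). It had the fewest reads of the tested factors in control cells, with 111 and 87 counts in control cells and 92 and 120 in RUNX3 KO cells. The groups overlapped, at 8.39 ± 1.44 and 8.89 ± 1.55 CPM (SD, n = 2 each). The change of 0.09 on the log2 scale (SE 0.149) had an edgeR quasi-likelihood adjusted p of 0.671, with an interval of 1.96 SE from -0.21 to 0.38, and it changed sign without control replicate 2 (-0.08) or RUNX3 KO replicate 2 (-0.11). FOXC2, on chromosome 16 from 86600435 to 86603334 (plus strand), had 0 counts in all 4 libraries, which allows up to 0.250 to 0.254 CPM per library. No direction can be given for it.

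**Figure D2:**
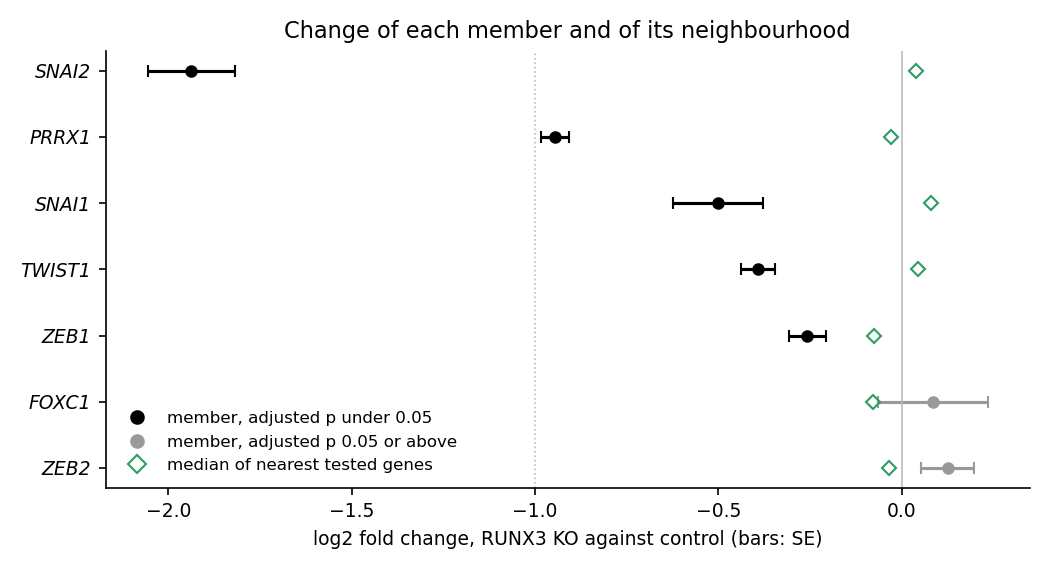
Log2 fold change of RUNX3 KO against control on the x axis for the 7 tested factors, with bars of 1 SE on either side, black where the adjusted p was under 0.05 and grey where it was not. Green diamonds are medians over the nearest tested genes, and the dotted line marks a 2-fold fall. SNAI2 at -1.94 is the only factor beyond that line, and the neighbourhood medians lie between -0.08 and 0.08.

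Genes around each factor were read beside it. For 6 of the 7 tested factors the neighbourhood was the 40 nearest tested genes with a position, 20 on each side. For FOXC1, near the end of chromosome 6, it held 23 genes. Around SNAI2 the median log2 fold change was 0.04 and none of the 40 genes fell as much as SNAI2. Around PRRX1 the median was -0.03, with 5 genes at or under its log2 fold change, around TWIST1 it was 0.04 with 2, and around SNAI1 it was 0.08 with 4. Of the 5 factors that fell, ZEB1 stood out least from its surroundings, with a median of -0.08 and 12 of 40 genes at least as low. The medians around ZEB2 and FOXC1 were -0.03 and -0.08, with 27 of 40 and 16 of 23 genes at least as low. Within 100 kb of a factor, 14 other genes of the tables were found. FOXF1, a forkhead gene 51407 bases from FOXC2, was lower at -0.48 (SE 0.109). GMDS, 9909 bases from FOXC1, was lower at -0.35 (SE 0.113) and SPATA2, 67451 bases from SNAI1, was higher at 0.29 (SE 0.103), and both calls were lost with DESeq2 and without either RUNX3 KO replicate. The GMDS call was also lost without control replicate 2 (-0.32), and the SPATA2 call without control replicate 1 (0.24) and with no filter on low counts. HDAC9, 18575 bases from TWIST1, was at -0.002 (SE 0.0595), with 650 and 662 counts in control cells and 660 and 662 in RUNX3 KO cells. That distance is to the annotated span of TWIST1, from 19060614 to 19157259, whose exons sum to only 1997 bases. Most of its exon bases may lie further from HDAC9.

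Levels can be compared between the factors only per length. Scaled to the merged exon length of each gene, TWIST1 was highest in control cells at 57.2 ± 1.30 CPM per kb (SD, n = 2), followed by PRRX1 at 28.5 ± 1.16, ZEB1 at 10.1 ± 0.101, SNAI1 at 8.55 ± 0.841, SNAI2 at 7.85 ± 0.185, FOXC1 at 2.11 ± 0.360 and ZEB2 at 1.42 ± 0.0691. SNAI1 and SNAI2 overlapped in control libraries, and the other neighbours in this order did not. In RUNX3 KO cells TWIST1 at 43.6 ± 0.710, PRRX1 at 14.8 ± 0.225, ZEB1 at 8.43 ± 0.165 and SNAI1 at 6.03 ± 0.113 CPM per kb (SD, n = 2) held their places. SNAI2 went under FOXC1, to 2.05 ± 0.316 against 2.23 ± 0.388 CPM per kb, and these overlapped. With the length of the longest annotated transcript instead, PRRX1 in control cells came to 57.8 ± 2.35 and TWIST1 to 70.1 ± 1.60 CPM per kb, and ZEB2, whose annotated exons sum to 26151 bases against 9583 in its longest transcript, rose to 3.87 ± 0.189, above FOXC1. By that length SNAI2 lay above SNAI1 in control cells, at 9.11 ± 0.215 against 8.55 ± 0.841, and above FOXC1 in RUNX3 KO cells, at 2.38 ± 0.367 against 2.23 ± 0.388 CPM per kb, and both pairs overlapped. The first ranks, TWIST1 then PRRX1 then ZEB1, were the same by both lengths in both groups.

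**Figure D3:**
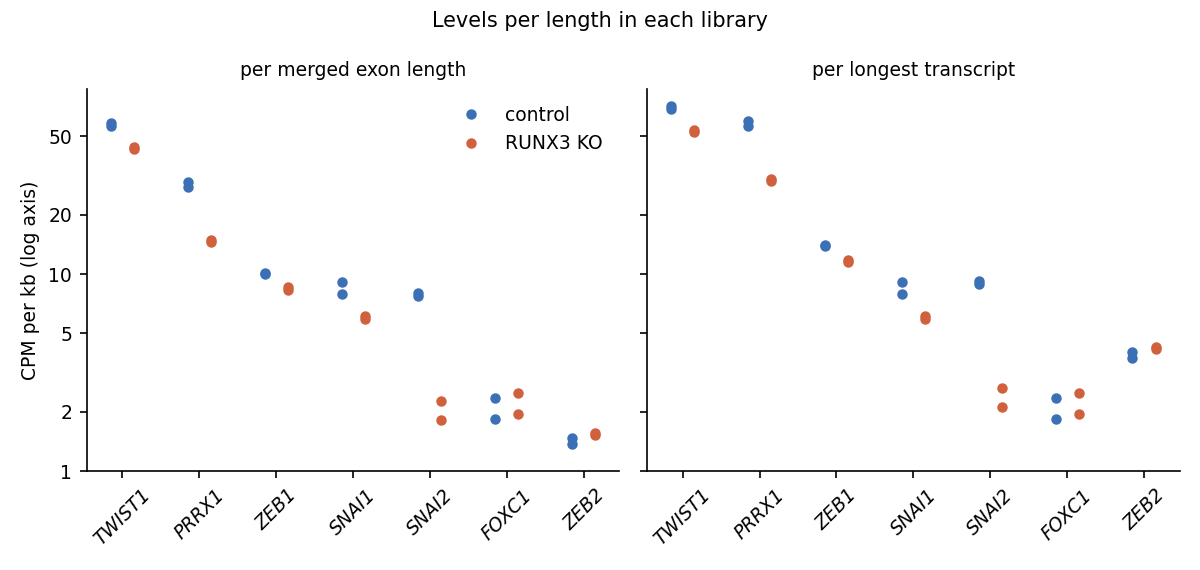
CPM per kb of the 7 expressed factors on a logarithmic y axis, scaled to merged exon length (left) or to the longest annotated transcript (right). Each point is 1 library, blue for control and orange for RUNX3 KO. TWIST1 is highest in both panels, and the place of ZEB2 depends on the length used.

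The RefSeq promoter table (GRCh38.p14) held entries for 5 of the 9 genes, PRRX1, ZEB1, ZEB2, TWIST2 and FOXC1, with 11 windows in all. SNAI1, SNAI2, TWIST1 and FOXC2 had no entry. The 250 bases before the start of the MANE Select transcript were located on GRCh37 by exact match, 1 for each gene, and searched on both strands for the RUNX core letters TGTGGT, for their variant TGCGGT, for the E-box letters CAGGTG and for the E-box variant CAGCTG. Among 35116 promoter windows of the same length, 11% held TGTGGT, 5.84% held TGCGGT, 17.5% held CAGGTG and 14.0% held CAGCTG. PRRX1, which fell most among these 5 genes, held none of the letters in its window, and neither did ZEB2 or TWIST2. The windows of PRRX1 and ZEB2 lie wholly within annotated UTRs of other transcripts, as do 91 of the 250 bases of ZEB1 and 53 of TWIST2, and the annotated PRRX1 gene begins upstream of its window, so these are windows before 1 transcript start and not the sole promoter of each gene. ZEB1 and FOXC1 are shown because they are the factors with a match, one that fell slightly and one that did not pass the test. Capitals mark the matched letters, and bases are counted back from the transcript start.

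ZEB1, 250 to 92 bases before the start, chr10:31607895-31608053 (GRCh37, plus strand): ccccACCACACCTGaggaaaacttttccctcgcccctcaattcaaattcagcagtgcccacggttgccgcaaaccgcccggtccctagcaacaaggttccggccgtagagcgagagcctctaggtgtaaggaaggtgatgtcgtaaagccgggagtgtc
ZEB1, 95 to 66 bases before the start, chr10:31608050-31608079 (GRCh37, plus strand): tgtcgtaaacCAGGTGCGGTggggaggggg
FOXC1, 250 bases to 1 base before the start, chr6:1609900-1610149 (GRCh37, plus strand): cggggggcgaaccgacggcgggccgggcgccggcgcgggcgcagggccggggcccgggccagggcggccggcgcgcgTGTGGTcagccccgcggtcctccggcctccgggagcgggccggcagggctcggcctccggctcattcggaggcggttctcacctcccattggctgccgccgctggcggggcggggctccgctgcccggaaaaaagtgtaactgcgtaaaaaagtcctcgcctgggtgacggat

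In the first ZEB1 stretch, the letters TGTGGT, read on the minus strand at 246 to 241 bases before the start, overlap the E-box letters CAGGTG, also on the minus strand at 242 to 237. In the second, CAGGTG at 85 to 80 overlaps TGCGGT at 81 to 76. FOXC1 has a single TGTGGT at 173 to 168. The matches are letters in a window and no binding was measured in these files. The windows differed in composition, from 48% G and C with 12 CpG in ZEB2 and 50.8% with 6 CpG in PRRX1 to 62.4% with 14 CpG in ZEB1 and 76.8% with 37 CpG in FOXC1, beside medians of 58% and 11 CpG over all windows.

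A pattern like that of a factor was sought as the smallest distance over the 4 libraries between log2 CPM values centred on each gene's own mean, among tested genes with a mean of at least 50 counts. The nearest genes were SEL1L3 (0.0887) and TSPAN5 (0.116) for SNAI2, and ZNF323 (0.0315) and TP53INP2 (0.0316) for PRRX1. ADRBK2 (0.0275) and CBLB (0.0397) were nearest to SNAI1, IDH1 (0.0155) and FKBP9 (0.0171) to TWIST1, and SLC25A3 (0.00976) to ZEB1. For ZEB2 these were POLR3A (0.00619) and NOM1 (0.00816), and for FOXC1 DSTNP2 (0.0817) and ALX1 (0.0959). With 4 libraries in 2 groups, such distances draw on the difference between the groups and on the spread between replicates. These parts were not separated.

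Other transcription factors linked to EMT were listed beside the 9, and the counts of this and the following lists stand beside 24.4% lower and 24.5% higher among all tested genes. Of 31 tested, 14 were lower and 11 higher in RUNX3 KO cells, so they did not share one direction, and their median was -0.08 on the log2 scale. The falls were led by RUNX2, the RUNX factor of bone formation, at -1.91 (SE 0.121), HEY1, a Notch target repressor, at -1.39 (SE 0.124) and MSX1, a homeobox factor of craniofacial mesenchyme, at -1.16 (SE 0.0739). Like SNAI2, RUNX2 is named by the study as lower in these libraries, so it is not independent of its findings. GATA6, a factor of endoderm, was higher at 0.91 (SE 0.131) and TEAD4, a DNA-binding partner of YAP, at 0.74 (SE 0.0457). PRRX2, the paralog of PRRX1, was lower by 0.38 on the log2 scale and the TWIST dimerisation partner TCF4 by 0.44, whereas the partners TCF3 and TCF12 were higher by 0.13 and 0.16. These 4 genes were chosen after their values were seen. The number that were higher was 5 without RUNX3 KO replicate 2 and 7 without RUNX3 KO replicate 1.

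Among epithelial genes known to be repressed by these factors, those with enough counts to be tested went mostly up. Of 39 listed, 38 were in the tables, and 12 had at most 3 counts in every library. Of 19 tested, 12 were higher, 1 was lower and 6 did not pass, with a median log2 fold change of 0.53. CDH1 itself was barely detected, with 15 and 21 counts in control cells and 30 and 32 in RUNX3 KO cells, and the difference of 0.77 on the log2 scale (SE 0.293) had an edgeR quasi-likelihood adjusted p of 0.0238. That call was lost with no filter on low counts (adjusted p = 0.0642), with DESeq2 (0.314) and without control replicate 1, RUNX3 KO replicate 1 or RUNX3 KO replicate 2 (0.238, 0.135 and 0.172 in edgeR). The desmosomal linker DSP went from 173 and 179 counts to 943 and 974, a log2 fold change of 2.43 (SE 0.0745), the desmosomal protein PKP2 changed by 0.60 (SE 0.168) and CDS1, a phospholipid synthesis enzyme, by 0.72 (SE 0.147). Beside DSP, the junction protein gene JUP, the keratin gene KRT8 and the cadherin gene CDH3 rose by at least 2-fold from few counts (3 and 6 to 21 and 27 for JUP, 19 and 11 to 72 and 81 for KRT8, 16 and 17 to 81 and 74 for CDH3), and these 3 were named after their values were seen. JUP entered the test only through the RUNX3 KO libraries, and with 10 counts required in every library 11 epithelial genes were higher. INADL, a polarity protein gene, was lower at -0.42 (SE 0.0936). The number of epithelial genes that were higher was 6 with DESeq2 or without either RUNX3 KO replicate. Without RUNX3 KO replicate 2 the calls of INADL (-0.29), CDS1 (0.60), JUP (2.19) and PKP2 (0.46) were lost, and that of PKP2 also without RUNX3 KO replicate 1 (0.73) or control replicate 2 (0.38), with no filter and with DESeq2.

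Regulators of epithelial identity were mostly silent, with 12 of 22 at or under 3 counts in every library. Of 7 tested, KLF4, TP63 and CDX2 were lower and KLF5 was higher. The Kruppel-like factor KLF4 was at -1.76 (SE 0.211), the intestinal homeobox factor CDX2 at -0.39 (SE 0.148) and KLF5 at 0.15 (SE 0.0538). TP63, a p53 family factor of stratified epithelia named after its values were seen, went from 16 and 14 counts to 3 and 4. It entered the test only through the control libraries, and 2 regulators were lower when 10 counts were required in every library. The calls of TP63, CDX2 and KLF5 were lost with DESeq2 and without either RUNX3 KO replicate, and those of CDX2 and KLF5 also without control replicate 2 (-0.37 and 0.07). The KLF5 call was lost with no filter on low counts as well (edgeR quasi-likelihood adjusted p = 0.152). Without either RUNX3 KO replicate, 1 regulator was lower and 0 were higher by the quasi-likelihood test in edgeR.

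Mesenchymal genes linked to the factors were lower in 25 and higher in 4 of 31 tested, with a median log2 fold change of -0.51. The study's supplementary lists, limited to binding sites with CDX2, LHX2 or TCF3 motifs, hold 3 of them. VIM and IGFBP3 of this list are named by the study as lower in these libraries. The count is thus not independent of its findings. The matrix glycoprotein gene TNC went from 164 and 183 counts to 0 in both RUNX3 KO libraries, at least 58.4-fold lower against a floor of 3 counts per library, the collagen gene COL1A2 from 1973 and 2030 counts to 1 and 5, and the gelatinase gene MMP2 from 309 and 311 to 36 and 36. TNC, COL1A2 and the collagen gene, COL6A3 (17 and 19 counts to 0 and 1, named after its values were seen), entered the test only through the control libraries, and with 10 counts required in every library 22 mesenchymal genes were lower. The fibrillin gene FBN1 at 1.16 (SE 0.177), the actin-binding protein gene TAGLN at 0.74 (SE 0.0464) and the collagen gene COL5A2 at 0.64 (SE 0.0263) were higher. Without RUNX3 KO replicate 2, 2 mesenchymal genes were higher and the call of FBN1 was lost (1.13). N-cadherin (CDH2), whose gain often accompanies EMT, had at most 3 counts in any library.

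**Figure D4:**
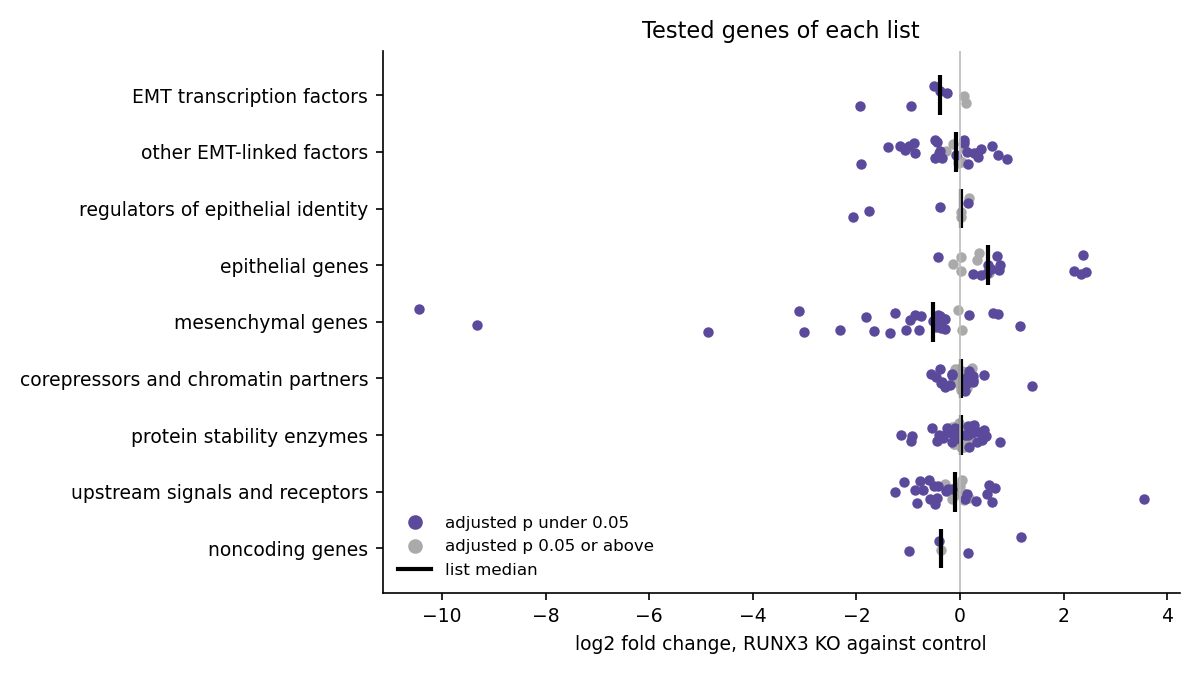
Log2 fold change of RUNX3 KO against control on the x axis for every tested gene of the 9 lists, 1 point per gene, with a black bar at each list's median. Purple points passed an adjusted p of 0.05 and grey points did not. Medians are -0.39 for the EMT transcription factors, 0.53 for epithelial genes and -0.51 for mesenchymal genes, and the leftmost points, TNC and COL1A2, are fitted values of genes at or near 0 counts in RUNX3 KO cells.

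Signals that induce the factors were also examined. Of 34 tested ligands, receptors and transducers, 15 were lower and 8 higher, with a median of -0.11. WNT5A, a ligand of noncanonical WNT signaling, was at -1.26 (SE 0.0510), AXIN2, a feedback target of beta-catenin, at -0.87 (SE 0.0446) and TGFB3 at -0.82 (SE 0.0680). WNT5A and TGFB3 are among the genes that the study names as lower in these libraries, so they are not independent of its findings. Its supplementary lists, limited to binding sites with CDX2, LHX2 or TCF3 motifs, hold 4 genes of this list. The receptor genes IGF1R and MET were higher at 0.67 (SE 0.0622) and 0.56 (SE 0.0632), and the ligand gene BMP4 at 0.61 (SE 0.0561). HGF, the ligand of MET, went from 1 and 2 counts to 20 and 18, at least 6.28-fold higher, and was named after its values were seen. It entered the test only through the RUNX3 KO libraries, and with 10 counts required in every library 7 genes of this list were higher. With DESeq2, with no filter, or without either RUNX3 KO replicate, 5 genes of this list were higher.

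Of 40 corepressors and chromatin partners tested, 9 were lower, 11 were higher and 20 did not pass, a share near that of all tested genes (24.4% lower and 24.5% higher), with a median log2 fold change of 0.01. WTIP, an Ajuba-family LIM protein, went furthest at 1.40 (SE 0.0867), with 188 and 190 counts in control cells and 526 and 478 in RUNX3 KO cells. The remodeler CHD4 was higher at 0.46 (SE 0.0231) and CTBP2, a corepressor bound by ZEB proteins, at 0.26 (SE 0.0624), a call lost with DESeq2 and without either RUNX3 KO replicate. The acetyltransferase gene EP300 was lower at -0.57 (SE 0.0388), the maintenance DNA methyltransferase gene DNMT1 at -0.46 (SE 0.0243) and SIN3B at -0.40 (SE 0.0487). With DESeq2, 5 were higher, and 4 were higher without either RUNX3 KO replicate.

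Enzymes that mark SNAIL, ZEB and TWIST proteins for degradation or stabilise them were split, with 15 lower and 14 higher of 46 tested and a median of 0.02. FBXL14, an F-box subunit of ubiquitin ligases that act on SNAIL and TWIST proteins, was higher at 0.78 (SE 0.136), FBXO22 at 0.50 (SE 0.0554) and the deubiquitinase USP5 at 0.46 (SE 0.0376). The kinase gene PRKD1 was lower at -0.93 (SE 0.164). Counts of RNA say nothing of protein stability. With DESeq2, 8 were lower and 9 higher. Without RUNX3 KO replicate 1 these numbers were 8 and 8, and without RUNX3 KO replicate 2 they were 5 and 6.

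Of the noncoding genes listed beside the factors, 15 of 28 were in the tables and 5 were tested. DNM3OS was lower at -0.98 (SE 0.146) and HOTAIR at -0.41 (SE 0.0952), whereas H19 was higher at 1.19 (SE 0.184) and MALAT1 at 0.15 (SE 0.0389). The genes of the miR-200 family, known repressors of ZEB1 and ZEB2, had 0 counts in all 4 libraries, and libraries of poly(A) RNA do not measure mature microRNAs. Without RUNX3 KO replicate 1, the calls of HOTAIR (-0.37) and MALAT1 (0.17) were lost, and without RUNX3 KO replicate 2 that of MALAT1 (0.13), which was also lost with DESeq2.

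The label of a gastric cancer line was checked against markers. Of 11 gastric and epithelial markers, 8 had at most 3 counts in every library, and the gastric genes MUC5AC, TFF1, TFF2, GKN1 and CLDN18 were at 0 throughout, so the expression does not show a gastric epithelial identity. The summed level of the 11 markers ran from 2.80 to 3.05 CPM in control and from 8.81 to 10.6 CPM in RUNX3 KO libraries. Most of this difference came from KRT8, with a mean of 1.27 CPM in control and 6.42 CPM in RUNX3 KO libraries. VIM, a mesenchymal marker, had 57834 and 57486 counts in control cells and 33828 and 35307 in RUNX3 KO cells, and was lower at -0.75 on the log2 scale (SE 0.0194). Leukocyte markers summed to between 0.665 and 1.78 CPM and endothelial markers to at most 0.339 CPM. The stromal markers DCN, LUM and PDGFRB were all detected and all lower, summing to 316 to 319 CPM in control and 235 to 241 CPM in RUNX3 KO libraries. The part of any other cell type in the results was not tested.

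**Figure D5:**
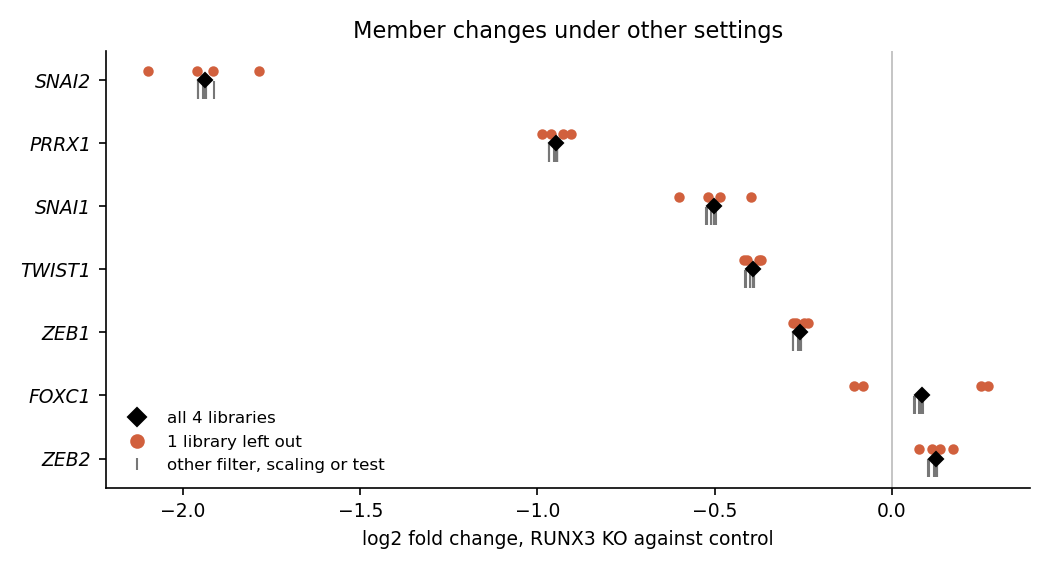
Log2 fold change of RUNX3 KO against control on the x axis for the 7 tested factors with all 4 libraries (black diamonds), with 1 library left out (orange points) and with another filter, scaling or test (grey ticks). SNAI2, PRRX1, SNAI1, TWIST1 and ZEB1 stay under 0 in each setting, ZEB2 stays above 0, and FOXC1 lies on both sides of 0.

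The 5 falls differed in how they held. Over the 15 alternatives SNAI2 ranged from -2.10 to -1.79, PRRX1 from -0.99 to -0.91, TWIST1 from -0.42 to -0.37 and ZEB1 from -0.28 to -0.24, and all 4 passed an adjusted p of 0.05 in each, whether by edgeR, limma-voom or DESeq2. SNAI1 passed in 12 of them. ZEB2 and FOXC1 passed in none, with adjusted p-values of at least 0.106 and 0.243 over the same alternatives.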

How the data were processed

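The data were RNA-seq libraries of HGC-27 cells, 2 control and 2 RUNX3 KO. The values deposited by the authors were read counts per gene symbol, not normalized, with 1 table per library. The study's methods name STAR, hg19, featureCounts and GENCODE, whereas the submitters' processing notes name bcl2fastq, HISAT2 2.1.0, HTSeq and hg19, and each table closes with 5 rows in the form that htseq-count writes. Those rows held 25.9% to 28.1% of all counts and were left out. Library depth was 11731401 to 12110876 reads on genes. Reads carried no molecular identifiers, so limits from counts cover counting error only. The strand setting is not given in the sources used here.

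Differential expression was computed with edgeR 4.0.16 (R 4.3.3) after filterByExpr (minimum count 10, minimum total 15) and TMM scaling, by the functions glmQLFit and glmQLFTest, with a prior count of 0.125. P-values of 12967 genes were adjusted by the Benjamini-Hochberg method. The SE is the log2 fold change over the square root of F. The common dispersion was 0.000211. On simulated counts for this comparison, the steps recovered 200 of 200 genes changed by 2-fold among 12895 tested, with 10 false calls. Between replicates, chi-square over its degrees of freedom was 1.22 in control and 1.18 in RUNX3 KO cells, so replicates differed by slightly more than counting noise. Positions and lengths came from GENCODE on GRCh37, the build called hg19, for 19367 genes matched by symbol and 2066 by synonym.

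The 9 factors and the other lists were chosen with earlier results of these data known. Genes were named by a rule: the 9 factors, RUNX3, CDH1, CDH2, in each other list up to 3 genes with the largest fall and up to 3 with the largest rise among called genes whose groups did not overlap and whose mean count reached 50, genes within 100 kb of a factor, and the 2 most alike genes. Some genes that the rule names are not reported here. Alternatives were other scalings (DESeq2 size factors, library size, upper quartile), filters, tests (DESeq2 1.42.0, limma-voom of limma 3.58.1, edgeR's exact test, its newer quasi-likelihood method), a replicate block, a prior count of 2, and each library left out in turn.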

Additional observations from a re-analysis of the deposited data

How the results depend on the processing

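Of the 15 alternatives, none turned the sign of SNAI2, PRRX1, SNAI1, TWIST1, ZEB1 or ZEB2. FOXC1 ranged from -0.11 to 0.27 with each library left out in turn, being -0.08 without control replicate 2 and -0.11 without RUNX3 KO replicate 2. The number of EMT transcription factors that were lower was 5, or 4 to 5 with a library left out and 4 with DESeq2, and it was 1 when a 2-fold change with an unadjusted p of at most 0.05 was required. RUNX3 ranged from -0.86 to -0.55 with a library left out and lost its call without RUNX3 KO replicate 2. The other scalings shifted the median log2 fold change of all genes by at most 0.0207.

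Numbers in the other lists moved by over 1.5 times as follows. DESeq2 left 1 lower and 0 higher regulator of epithelial identity, 6 higher epithelial genes, 5 higher corepressors, 8 lower and 9 higher protein stability enzymes, 5 higher upstream signals and 1 higher noncoding gene. No filter left 0 higher regulators of epithelial identity and 5 higher upstream signals. With a library left out, other EMT-linked factors gave 5 to 10 higher, regulators of epithelial identity 1 to 3 lower and 0 to 1 higher, epithelial genes 0 to 1 lower and 6 to 11 higher, mesenchymal genes 2 to 4 higher, corepressors 4 to 12 higher, protein stability enzymes 5 to 14 lower and 6 to 12 higher, upstream signals 5 to 8 higher, and noncoding genes 1 to 2 lower and 1 to 2 higher. A group with 1 library left was assumed to vary like the other. The cause of these moves was not tested.

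The labels do not say whether replicate numbers pair the libraries, and replicates this close to counting noise could hide a pairing. Deviations of same-numbered libraries correlated at 0.0257 over 12967 genes, and with a replicate block 5 factors were lower and 0 higher, with a largest adjusted p of 0.000222 among the 5 by edgeR's quasi-likelihood test. The block left 3143 lower and 3143 higher genes in all, against 3158 and 3183 without it. At this depth, a fall of genes at the floor in control cells, such as TWIST2 and FOXC2, or a rise that leaves them near it, cannot be detected.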
